A study of Mus musculus with 6 samples.

Results

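Transcripts of 10 secreted factors that recruit or sustain leukocytes were followed in differentiating mouse muscle cells: the macrophage growth factor Csf1, the cytokine Il6, the CC chemokines Ccl2, Ccl7 and Ccl5, the CXC chemokines Cxcl1, Cxcl5, Cxcl10 and Cxcl12, and the CX3C chemokine Cx3cl1. The genes were taken as a named set, chosen with earlier results of these data known. Every probe set that the platform annotation assigns to one of them alone was kept. All 10 genes had such a probe set, out of 18192 genes with one, which gave 20 probe sets among the 45033 tested. Csf1 and Cx3cl1 had 4 probe sets each, Cxcl1 and Cxcl12 had 3 each, and each of the other 6 genes had 1. The RNA came from C2C12, an established mouse myoblast line, held for 28 hours in Dulbecco's modified Eagle medium with 2% horse serum, a low-serum condition in which the cells differentiate. The labels give 3 arrays from cells transfected with a control GFPshRNA (short hairpin RNA) and 3 from cells transfected with PRDM2 shRNA, and call the arrays of a group biological replicates. PRDM2 is a PR domain protein linked to methylation of histone H3 at lysine 9. The sources used here do not say whether the transfected cells were clones or pools, nor how many hairpin sequences were used.

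Chemokines are small secreted proteins that guide leukocytes by binding G-protein-coupled receptors, and their classes are named for the spacing of the first cysteines. CSF-1 binds the receptor tyrosine kinase encoded by Csf1r and supports the survival and growth of macrophages. Activated muscle precursor cells are known to release several of these factors, which attract monocytes to damaged muscle, and IL-6 is also made by contracting muscle. Many of the genes are known targets of the transcription factor NF-kB.

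Several facts about the arrays bear on the values. The median intensity of the arrays lay between 10.7 and 11.4 units, and between 42.5% and 43.4% of the probe sets on an array read above 16 units. Detection calls were not used here, so 16 units served as the line below which a probe set is called dim. The array labelled control replicate 2 was closer to knockdown replicate 2 than any other of the 15 pairs of arrays, with a median absolute deviation of the log2 difference of 0.08 over the brightest 25% of probe sets. Its deviation from control replicates 1 and 3 was 0.38 and 0.37. Knockdown replicate 2 also lay apart from its group, with 0.30 and 0.27 from knockdown replicates 1 and 3. Control replicate 3 was closer to knockdown replicate 3 (0.20) than to control replicate 1 (0.22). Whether a label or a sample of the arrays numbered 2 was exchanged cannot be settled from the processed values, and every difference between the groups carries that doubt. Log2 fold changes of the members and of the pathway and marker genes named with one are therefore also given without control replicate 2. The 3 probe sets of Prdm2 had log2 fold changes from 0.07 to 0.15 (adjusted p = 1 for each with limma), so the target's mRNA did not separate the groups and every direction rests on the labels. Of 14 skeletal muscle markers, 13 read above 16 units on all 6 arrays. Of 15 measured macrophage and leukocyte markers, 13 read above 16 on none.

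Most of the chemokine genes were at or under that line. Of the 20 probe sets, 4 read above 16 units on all 6 arrays, against a background of 36.8% of all probe sets. These were 3 probe sets of Csf1 and 1 of Cx3cl1. A further 9 probe sets read above 16 on no array, against a background of 50.8%, and they covered all probe sets of 5 genes, namely Il6, Ccl7, Ccl5, Cxcl5 and Cxcl10. The remaining 7 crossed the line on some arrays only.

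**Figure D1:**
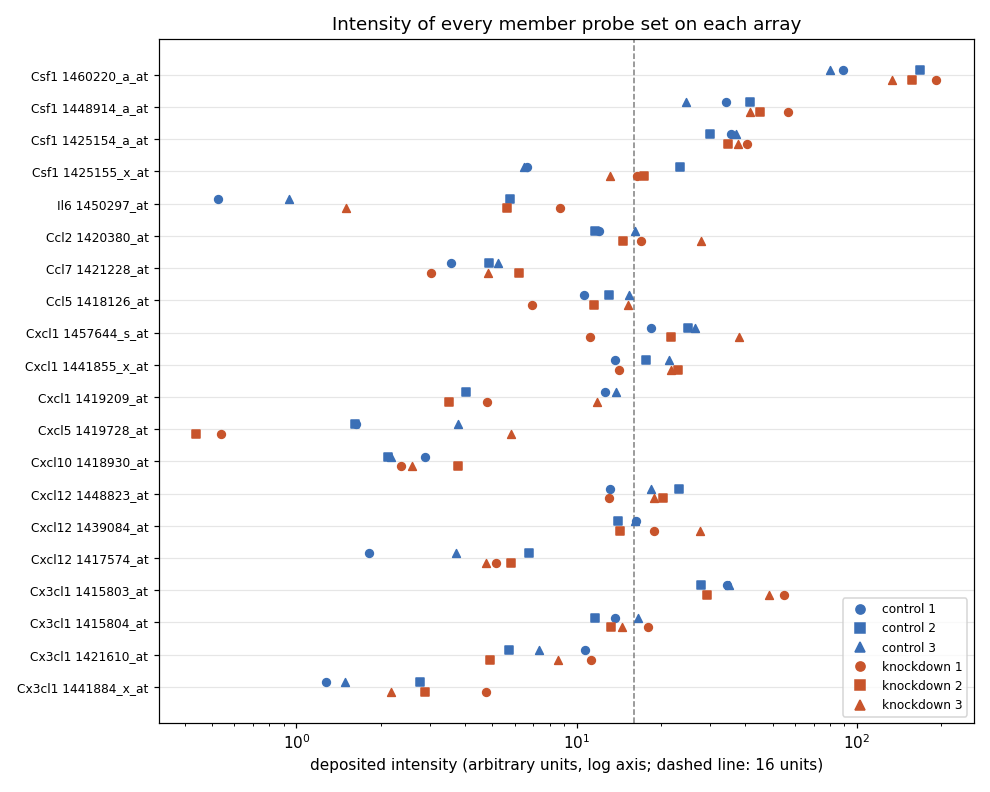
Deposited intensity (arbitrary units, log axis) of the 20 probe sets of the 10 genes on each of the 6 arrays, with control arrays in blue, knockdown arrays in orange and the replicate number as the marker shape. The 3 brightest Csf1 probe sets and Cx3cl1 1415803_at lie to the right of the dashed line at 16 units on every array, and most other probe sets lie near it or to its left.

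The promoters of Csf1, Il6, Cxcl1 and Cxcl10 are shown because they hold a match to the kappaB consensus, the site bound by NF-kB. RefSeq promoter sequences (GRCm38.p6) were at hand for 6 of the 10 genes, and the 250 bases before each start were searched on both strands. Those 4 of the 6 genes held the consensus, which 3.9% of 32851 promoters held at the same length. The members were chosen as inflammatory genes, so this share is a description and no independent evidence. Cxcl12 and Cx3cl1 had no match in this window, and Ccl2, Ccl7, Ccl5 and Cxcl5 were not searched. The AP-1 letters TGANTCA, also sought on both strands, were found in 2 genes, Il6 and Cxcl10, and in 6.75% of all promoters. Each line below gives 20 bases on either side of a match, 5′ to 3′ on the strand of the gene, with the matching bases in capitals. In Cxcl1 2 overlapping matches are joined, and Cxcl10 held 2 separate ones.
Csf1, chr3:107760594-107760643, minus strand: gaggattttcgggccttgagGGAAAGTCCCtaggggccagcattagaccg
Il6, chr5:30013050-30013099, plus strand: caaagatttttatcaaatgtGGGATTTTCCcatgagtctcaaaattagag
Cxcl1, chr5:90891154-90891204, plus strand: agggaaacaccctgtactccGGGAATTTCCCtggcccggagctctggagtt
Cxcl10, distal, chr5:92349019-92349068, minus strand: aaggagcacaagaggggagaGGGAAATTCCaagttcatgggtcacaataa
Cxcl10, proximal, chr5:92348963-92349012, minus strand: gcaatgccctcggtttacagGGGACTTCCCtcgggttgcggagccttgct
The matches began 154 bases before the start in Csf1, 44 in Il6, 71 in Cxcl1, and 159 and 103 in Cxcl10. A match of letters does not show that a factor binds there.

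Csf1 was the only one of the 10 genes to pass the threshold in any fit run here, and it did so only with control replicate 2 left out. Its brightest probe set, 1460220_a_at, read 89.0, 167 and 80.2 units in control replicates 1, 2 and 3, and 192, 158 and 133 units in knockdown replicates 1, 2 and 3. Control replicate 2 lay within the knockdown range, and the other control arrays lay below all 3 knockdown arrays. With all 6 arrays the log2 fold change was 0.53 (SE 0.23, adjusted p = 1 with limma, 3 arrays in each group), which is 1.44-fold on the log2(intensity + 16) scale. Its 95% interval ran from -0.02 to 1.08. Without control replicate 2 the difference was 0.80 (SE 0.11, adjusted p = 0.054 with limma), or 1.74-fold.

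The call of that probe set turned on how many features were tested and on pairing. When each gene was read by its brightest probe set alone, a fit added after the values were seen, Csf1 rose without control replicate 2 (log2 fold change 0.80, adjusted p = 0.035 with limma over 18192 genes). With both arrays numbered 2 left out, the log2 fold change was 0.82, with an adjusted p of 0.14 without a block and of 0.034 with the replicate number as a block (limma). In the same 3 fits the share of all features called was 1.66%, 0.131% and 1.52% in turn. The array was left out after it was seen to stand apart, so these p-values are optimistic.

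The second probe set of Csf1, 1448914_a_at, gave a smaller difference in the same direction. It read 34.1, 41.7 and 24.6 units in the control arrays and 56.7, 44.9 and 41.5 units in the knockdown arrays, in the order of the replicate numbers. After quantile normalization every knockdown array lay above every control array, while in the deposited units knockdown replicate 3 and control replicate 2 were almost level. This was the only 1 of the 20 probe sets whose normalized groups did not overlap with knockdown higher, against a background of 3.18%, and 0 of the 20 were separated with knockdown lower, against 4.06%. Its log2 fold change was 0.39 (SE 0.14, 95% interval 0.06 to 0.72, unadjusted p = 0.026, adjusted p = 1 with limma), and 0.49 (SE 0.14, adjusted p = 0.26) without control replicate 2.

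The other Csf1 probe sets disagreed with each other about control replicate 2. Probe set 1425154_a_at read 35.5, 29.8 and 36.9 units in the controls and 40.5, 34.6 and 37.5 units in the knockdown arrays, so that control replicate 2 was the lowest of the 6. Its log2 fold change was 0.11 (SE 0.10), and 0.02 (SE 0.09) without that array. Probe set 1425155_x_at, of a type in which some probes can also bind other transcripts, read 6.63, 23.4 and 6.50 units in the controls and 16.5, 17.4 and 13.2 units in the knockdown arrays. There control replicate 2 was the highest of the 6, and the log2 fold change went from 0.22 (SE 0.22) to 0.48 (SE 0.09, adjusted p = 0.11 with limma) without it. Which Csf1 transcripts each probe set measures was not analysed here.

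**Figure D2:**
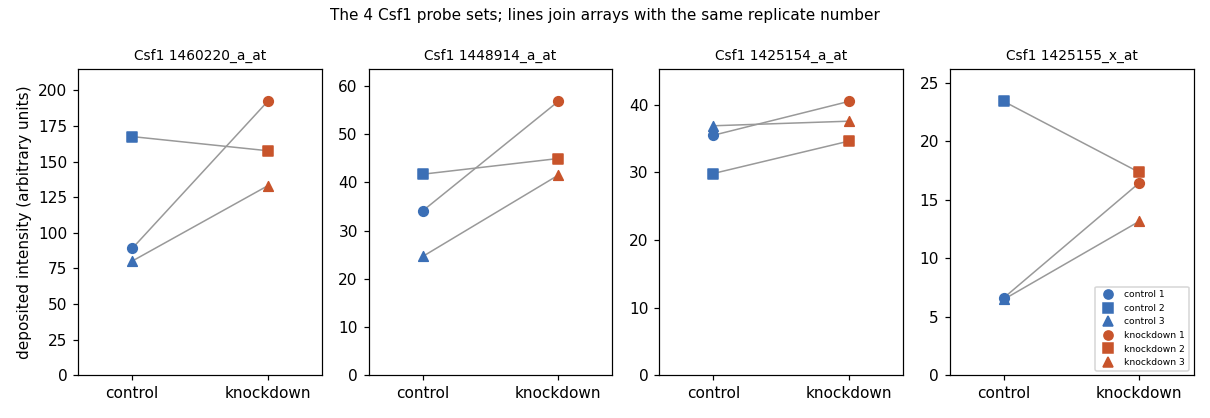
Deposited intensity (arbitrary units, each axis from 0) of the 4 Csf1 probe sets on the 6 arrays, with lines joining arrays that share a replicate number. In 1460220_a_at the lines of numbers 1 and 3 climb from 89.0 and 80.2 to 192 and 133 units, while number 2 goes from 167 to 158.

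Of all 20 probe sets, 15 had a positive log2 fold change and 5 a negative one, with a median of 0.08 against -2.90e-05 over all probe sets. Probe sets of 1 gene are not independent, and 4 of the 15 belong to Csf1 and 4 to Cx3cl1. The members were chosen with earlier results of these data known, so the counts given here are a description. With all 6 arrays, 0 of the 20 were called at an adjusted p of 0.05 with limma, against 0% of all probe sets, and 1 of the 20 had an unadjusted p under 0.05, against 2.94%. With the replicate number as a block, 0 were called and 4 had an unadjusted p under 0.05, against 7.84%. Without control replicate 2, 0 of the 20 were called at the probe set level, against 0.551%, and 3 had an unadjusted p under 0.05, all of Csf1, against 10.3%.

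**Figure D3:**
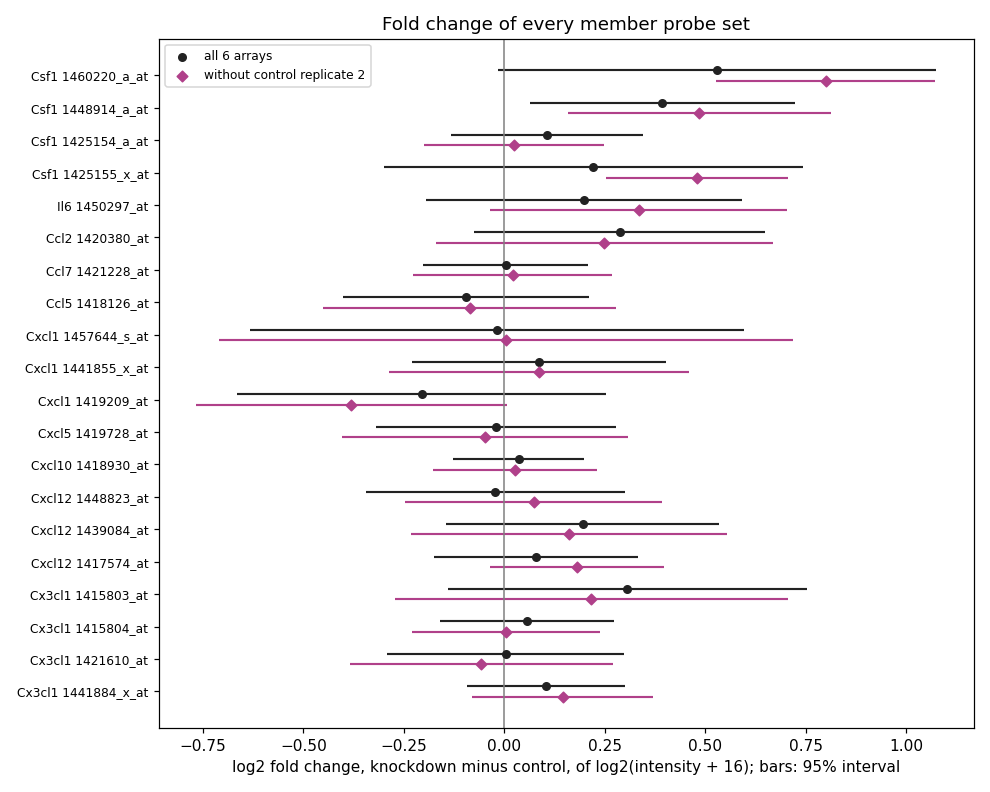
Log2 fold change of log2(intensity + 16), knockdown minus control, with 95% interval for each of the 20 probe sets, in black for all 6 arrays and in purple without control replicate 2. With all 6 arrays and no replicate block, only the interval of Csf1 1448914_a_at, from 0.06 to 0.72, does not cross 0. Without control replicate 2 the intervals of 3 Csf1 probe sets do not cross 0.

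Cx3cl1 encodes fractalkine, a chemokine made as a membrane-bound protein that proteases can release. Its brightest probe set, 1415803_at, read 34.4, 27.7 and 34.9 units in the controls and 54.7, 29.1 and 48.3 units in the knockdown arrays. Both arrays numbered 2 were the lowest, and knockdown replicates 1 and 3 lay above all other arrays. Its fitted difference was 0.31 log2 units (SE 0.19, adjusted p = 1 with limma), with an interval from -0.14 to 0.75, and 0.22 without control replicate 2. With the replicate number as a block the interval ran from 0.07 to 0.54 (adjusted p = 0.63 with limma). Leaving out 1 array at a time moved the fitted difference from 0.19 without knockdown replicate 1 to 0.51 (SE 0.11, adjusted p = 1.00 with limma) without knockdown replicate 2. Within the numbers 1, 2 and 3 the log2 difference between knockdown and control was 0.45, 0.06 and 0.40. The other 3 probe sets, between 1.27 and 18.0 units, had log2 fold changes of 0.06 (1415804_at), 0.003 (1421610_at) and 0.10 (1441884_x_at), and of 0.004, -0.06 and 0.15 without control replicate 2.

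Ccl2, which attracts monocytes through the receptor encoded by Ccr2, read 12.0, 11.6 and 16.1 units in the controls and 17.0, 14.7 and 27.7 units in the knockdown arrays. Control replicate 3 lay between knockdown replicates 1 and 2, so the groups overlapped, and knockdown replicate 3 stood above the rest. Its fitted difference was 0.29 log2 units (SE 0.15, adjusted p = 1 with limma), with an interval from -0.08 to 0.65. It was 0.25 without control replicate 2 and was positive in all 6 fits that left out 1 array, from 0.12 without knockdown replicate 3 to 0.39 without knockdown replicate 2. With the replicate number as a block the SE was 0.09 and the adjusted p 0.63 (limma). Ccl7, whose gene lies next to Ccl2 with 0 protein-coding genes between them and whose product shares the receptor, read 3.03 to 6.24 units (log2 fold change 0.003, SE 0.09; 0.02 without control replicate 2). Ccl5, which attracts T cells and monocytes, read 10.6, 13.1 and 15.3 units in the controls and 6.94, 11.5 and 15.2 units in the knockdown arrays. In Ccl5 the groups overlapped almost wholly (log2 fold change -0.10, SE 0.13; -0.09 without control replicate 2).

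Cxcl1, a neutrophil attractant that acts through the receptor encoded by Cxcr2, varied more between arrays than between groups. Probe set 1457644_s_at read 18.4, 24.99 and 26.5 units in the controls and 11.1, 21.8 and 38.1 units in the knockdown arrays. Knockdown replicates 1 and 3 were the lowest and the highest of the 6, and the fitted difference was -0.02 log2 units (SE 0.26, interval -0.63 to 0.60), or 0.005 without control replicate 2. Its sign turned when single arrays were left out, from -0.30 without knockdown replicate 3 to 0.24 without knockdown replicate 1. Probe set 1441855_x_at, like Cx3cl1 1441884_x_at, is of the type in which some probes can also bind other transcripts. It read 13.7 to 21.3 units in the controls and 14.1 to 23.1 in the knockdown arrays (log2 fold change 0.09, SE 0.13; 0.09 without control replicate 2). The remaining probe set, 1419209_at, gave the lowest fold change of the 20, at -0.21 (SE 0.19), and -0.38 (SE 0.16) without control replicate 2. It read 12.6, 4.03 and 13.9 units in the controls and 4.79, 3.50 and 11.8 units in the knockdown arrays, so that control replicate 2 again lay with knockdown arrays.

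Cxcl12, the ligand of the receptors encoded by Cxcr4 and Ackr3, has a role in the migration of muscle precursors. Its probe set 1439084_at read 16.3, 14.0 and 16.1 units in the controls and 18.8, 14.3 and 27.4 units in the knockdown arrays, with knockdown replicate 3 apart from the rest (log2 fold change 0.19, SE 0.14; 0.16 without control replicate 2). Without knockdown replicate 3 the log2 fold change was 0.04, and without knockdown replicate 2 it was 0.31. Probe set 1448823_at read 13.1, 23.2 and 18.4 units against 13.1, 20.3 and 18.9 units, which is close within each number (log2 fold change -0.02, SE 0.13; 0.07 without control replicate 2). Probe set 1417574_at stayed between 1.81 and 6.74 units (log2 fold change 0.08, SE 0.11; 0.18 without control replicate 2). With all 6 arrays, the interval of each of the 3 included 0.

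The remaining genes were near the floor of the scale, where the offset of 16 sets the size of any fold change. Il6 read 0.526, 5.79 and 0.941 units in the controls and 8.70, 5.62 and 1.499 units in the knockdown arrays (log2 fold change 0.20, SE 0.16; 0.33 without control replicate 2). Both arrays numbered 2 were near 6 units, and knockdown replicate 1 was the highest. With an offset of 1 the log2 fold change of Il6 was 0.97 (adjusted p = 1 with limma). Cxcl5, a further CXCR2 ligand, read 1.63, 1.62 and 3.77 units in the controls and 0.538, 0.439 and 5.81 in the knockdown arrays (log2 fold change -0.02, SE 0.12; -0.05 without control replicate 2). Cxcl10, an interferon-induced ligand of the receptor encoded by Cxcr3, stayed between 2.11 and 3.76 units on all arrays (log2 fold change 0.04, SE 0.07; 0.03 without control replicate 2). None of these readings shows that a transcript was absent.

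Receptors for the 10 factors were read by their brightest probe sets. Of 24 measured genes in the list of chemokine and cytokine receptors, 7 read above 16 units on all arrays and 13 on none. In that list 0 were called higher and 0 lower, with a median log2 fold change of 0.01 against -0.003 over all genes. Csf1r, the receptor of CSF-1, read 77.6, 66.9 and 121 units in the controls and 34.5, 87.5 and 134 units in the knockdown arrays, the lowest being knockdown replicate 1 and the highest knockdown replicate 3 (log2 fold change -0.12, SE 0.43; -0.30, SE 0.47 without control replicate 2). Beside it, the summed intensity of the 15 macrophage and leukocyte markers ranged from 103 to 147 units in controls and from 102 to 134 in knockdown arrays. Of the 15, 10 had a positive log2 fold change with all 6 arrays (median 0.01 against -0.003 over all genes). Cd14 was the only 1 of them with an unadjusted p under 0.05 (limma). Of these markers Adgre1 and Cd14 alone read above 16 on all arrays. Cd14, a monocyte receptor for lipopolysaccharide, read 50.0, 27.7 and 35.7 units in the controls and 17.0, 24.4 and 27.4 units in the knockdown arrays (log2 fold change -0.44, SE 0.18, unadjusted p = 0.049, adjusted p = 1 with limma; -0.59, SE 0.16, adjusted p = 0.25 without control replicate 2). Its knockdown arrays all lay below its control arrays in these units, with knockdown replicate 3 and control replicate 2 almost level, and the groups overlapped after normalization. Adgre1, which encodes the macrophage antigen F4/80, differed by 0.03 log2 units (SE 0.20), and by -0.16 (SE 0.16) without control replicate 2. The part of these markers in the Csf1r values was not tested.

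Ackr3, a receptor that takes up CXCL12 without G-protein signalling, read 303, 204 and 165 units in the controls and 117, 191 and 141 units in the knockdown arrays. Control replicate 1 was the highest and control replicate 3 lay within the knockdown range (log2 fold change -0.49, SE 0.24, interval -1.06 to 0.08, adjusted p = 1 with limma; -0.55, SE 0.27 without control replicate 2). Cxcr4 read 56.8 to 98.8 units in the controls and 59.2 to 93.6 in the knockdown arrays (log2 fold change 0.02, SE 0.19; 0.15, SE 0.19 without control replicate 2). Il6st, the signalling subunit of the IL-6 receptor, read 149, 249 and 143 units in the controls and 207, 226 and 181 in the knockdown arrays, where control replicate 2 was the highest of all (log2 fold change 0.22, SE 0.19; 0.45, SE 0.10, adjusted p = 0.16 without control replicate 2). Il6ra, which binds IL-6 itself, stayed between 4.72 and 8.35 units. Cxcr3 read 32.0 to 50.6 units in the controls and 37.8 to 44.9 in the knockdown arrays (log2 fold change -0.06, SE 0.16; -0.23, SE 0.09, adjusted p = 0.47 without control replicate 2). Cxcr2, Ccr1 and Cx3cr1 read at most 7.01 units on any array, and Ccr2 was above 16 units in both arrays numbered 3 alone, at 19.5 in the control and 19.7 in the knockdown.

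**Figure D4:**
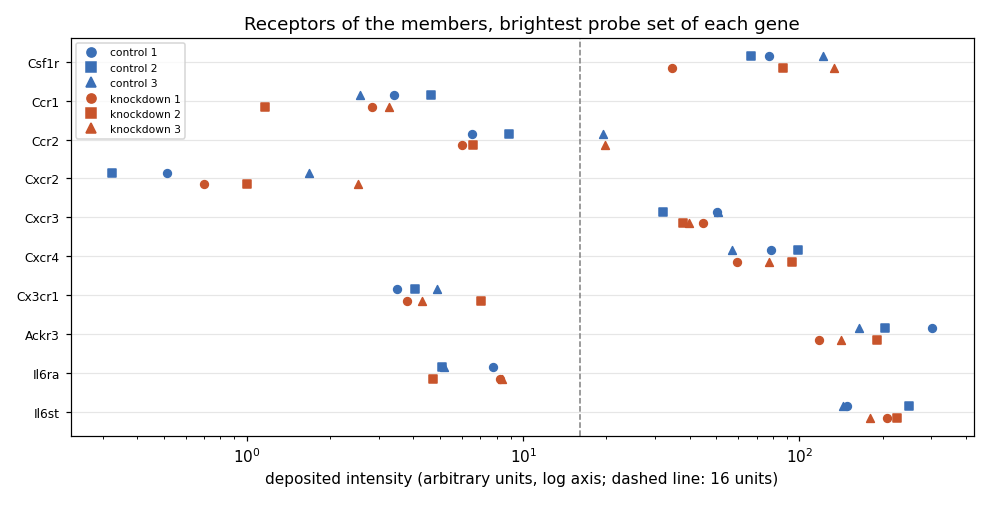
Deposited intensity (arbitrary units, log axis) of the brightest probe set of each receptor gene on the 6 arrays, with blue for control, orange for knockdown and the marker shape for the replicate number. Csf1r, Cxcr3, Cxcr4, Ackr3 and Il6st lie above the dashed line at 16 units on every array, and the blue and orange points overlap for each receptor.

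Other genes of the same systems were read from lists drawn up by known function. Among 26 measured further chemokine ligands, 1 read above 16 units on all arrays, namely Xcl1 at 48.1 to 66.1 units, and 0 were called in either direction. Among 19 further growth factors and cytokines 0 were called, with a median log2 fold change of -0.07. Mif, an abundant cytokine of many cell types, read 2008, 1661 and 1884 units in the controls and 1752, 1592 and 1555 in the knockdown arrays (log2 fold change -0.16, SE 0.08; -0.23, SE 0.08, adjusted p = 0.37 without control replicate 2). Il18 read 75.4, 40.4 and 44.2 units against 19.97, 37.0 and 44.2 units (log2 fold change -0.45, SE 0.26; -0.60, SE 0.27 without control replicate 2).

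Of 31 NF-kB and inflammatory regulators 0 were called with all 6 arrays and 19 had a positive log2 fold change (median 0.04). Rela, the NF-kB subunit also known as p65, read 346, 238 and 281 units in the controls and 199.997, 214 and 203 in the knockdown arrays, so that the groups did not overlap (log2 fold change -0.42, SE 0.14, adjusted p = 1 with limma; -0.56, SE 0.10, adjusted p = 0.10 without control replicate 2). Such a separation, with knockdown lower, was found in 4.06% of all probe sets. Fos, an AP-1 subunit, read 25.8, 27.0 and 19.9 units against 43.4, 25.04 and 32.3 units (log2 fold change 0.30, SE 0.15; 0.34, SE 0.17 without control replicate 2). Bcl3, a nuclear NF-kB cofactor, differed by 0.28 log2 units (SE 0.15), and by 0.43 (SE 0.11, adjusted p = 0.24 with limma) without control replicate 2.

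Among the pathway lists, the regulators of cytokine mRNA stability held the only gene called without control replicate 2. Of 8 genes 0 were called with all 6 arrays, and 1 rose without that array, where 0.551% of all probe sets were called. Zfp36l2, an RNA-binding protein that promotes decay of AU-rich mRNAs, read 145, 493 and 158 units in the controls and 417, 435 and 314 in the knockdown arrays. Its log2 fold change was 0.74 (SE 0.42) with all 6 arrays and 1.26 (SE 0.13, adjusted p = 0.026 with limma) without control replicate 2. Zfp36l1, of the same family, read 162, 659 and 164 units against 543, 613 and 327 units (log2 fold change 0.84, SE 0.52; 1.47, SE 0.22, adjusted p = 0.065 without that array). In both genes, as in Csf1 1460220_a_at, control replicate 2 lay inside or above the knockdown range. Of 9 proteases that release or trim chemokines 0 were called in either fit, and 5 had a positive log2 fold change with all 6 arrays. Mmp2 had the lowest p of the 4 with a mean of at least 16 units. It differed by -0.26 log2 units (SE 0.12), and by -0.32 (SE 0.13, adjusted p = 0.46 with limma) without control replicate 2. Adam10, which sheds CX3CL1, differed by 0.17 log2 units (SE 0.11), and by 0.27 (SE 0.09, adjusted p = 0.39 with limma) without control replicate 2. Mmp14 differed by -0.07 (SE 0.11), and by -0.12 (SE 0.12) without that array.

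Markers of other cell types were read in the same way, since fibroblasts also make several of these factors. Of 7 measured fibroblast markers 3 read above 16 units on all arrays, and their summed intensity ranged from 2288 to 3611 units in controls and from 2675 to 3509 in knockdown arrays. Of the 7, 3 had a positive log2 fold change with all 6 arrays (median -0.006), and the markers named here had both signs. Pdgfra read 12.8, 69.7 and 14.8 units in the controls and 22.5, 60.3 and 29.3 in the knockdown arrays, with both arrays numbered 2 the highest (log2 fold change 0.29, SE 0.44; 0.77, SE 0.27, adjusted p = 0.38 without control replicate 2). Col1a2, a collagen chain, read 2161, 3140 and 1610 units against 2737, 3018 and 2146 units (log2 fold change 0.23, SE 0.25; 0.49, SE 0.16, adjusted p = 0.36 without control replicate 2). Dcn read 176, 17.8 and 178 units against 7.23, 13.7 and 19.6 units, with a log2 fold change of -1.89 (SE 0.67, adjusted p = 1 with limma) over all 6 arrays, and it fell without control replicate 2 (log2 fold change -2.73, SE 0.18, adjusted p = 0.010 with limma). Of 6 endothelial markers 5 read above 16 on no array. With all 6 arrays 0 markers of the muscle, leukocyte, endothelial and fibroblast lists were called. Without control replicate 2, 1 of the 7 fibroblast markers was called, Dcn (lower). Of the 14 muscle markers, the transcription factor genes Mef2c (higher) and Myf5 (lower) were called. No marker of the leukocyte and endothelial lists was called. The share of all probe sets called in that fit was 0.551%, and it includes dim ones, while each marker was read by its brightest probe set. With all 6 arrays, 10 of the 14 muscle markers had a positive log2 fold change (median 0.08). Myf5 read 177, 43.5 and 170 units in the controls and 29.7, 41.0 and 34.7 in the knockdown arrays. Its groups did not overlap, but control replicate 2 was almost level with knockdown replicate 2. Of all probe sets, 4.06% were separated with knockdown lower. The log2 fold change of Myf5 was -1.32 (SE 0.46) with all 6 arrays. Without control replicate 2 it was -1.90 (SE 0.11, adjusted p = 0.0068 with limma). Mef2c had 1.05 (SE 0.52), and 1.68 (SE 0.22, adjusted p = 0.045 with limma) without that array. In Mef2c control replicate 2, at 347 units, lay inside the knockdown range. The part of these markers in the Csf1 values was not tested.

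Among members with a mean of at least 16 units, only the brightest Cxcl1 probe set had a range over the 6 arrays of at least 1 log2 unit. The 2 genes nearest to its pattern, by the root mean square difference of centred log2 values over 6 arrays and among 10047 genes, were F3, at 0.05, and Sdk2, at 0.08. F3, which encodes tissue factor, read 13.7, 20.4 and 20.2 units in the controls and 8.94, 18.7 and 31.2 in the knockdown arrays, with the lowest and the highest again in knockdown replicates 1 and 3. With 6 arrays and 144 genes within 0.2 log2 units, such nearness is a description.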

How the data were processed

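Affymetrix mouse arrays, 1 per sample, were compared between 3 control and 3 knockdown samples, grouped by the labels. The authors deposited 1 linear intensity value for each probe set and array. GCOS and PLIER are named in the submitters' processing notes, with no version or role. How arrays were scaled before deposit is not stated there. Of 45101 probe sets, 64 control probe sets were left out, as were 4 of Gngt1 in which 1 array held the gene's Entrez number. The rest were taken as log2(intensity + 16), which understates changes of dim genes, and quantile normalized. By Entrez number, 10 of 10 members matched RefSeq (GRCm38.p6).

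The main fit used lmFit and eBayes of limma 3.58.1 (R 4.3.3), two-sided, over all 45033 probe sets, and p-values were adjusted by Benjamini-Hochberg and called at 0.05. The main fit held no replicate block. The script was tested on simulated data. Precision is limited by the number of arrays. The named genes were the members, their receptors, the 3 genes of lowest p with a mean of at least 16 units in each list, and genes called without control replicate 2, read by their brightest probe set; a selection of these is printed. The members and lists were chosen with earlier results of these data known.

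To test pairing, each array's deviation from its group mean was correlated with that of the array of the same number, which gave 0.32, 0.60 and 0.62, all above the 0.1 set for calling numbers paired. Within a group the deviations cancel out, so these values depend on each other and are not separate evidence of pairing. By the deviation of the log2 difference, knockdown replicate 1 was closer to control replicate 3 (0.28) than to control replicate 1 (0.31). The pairing comes from the data, and the labels state no shared batch. Alternatives were the scaling, the offset, a filter on dim probe sets, 1 probe set a gene, eBayes with trend and robust settings, the replicate block, and arrays left out.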

Additional observations from a re-analysis of the deposited data

How the results depend on the processing

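With all 6 arrays, 0 probe sets were called in the main fit and in each of 8 alternatives (no rescaling, median centring, offset 1 or 64, the filter on dim probe sets, 1 probe set a gene, trend and robust settings, the replicate block), where 587 to 3531 had an unadjusted p under 0.05 (limma). Leaving out 1 array gave 0 to 248 calls, with 248 without control replicate 2 and 0 without any other (464 to 2045 at an unadjusted p under 0.05). There were 302 calls with 1 probe set a gene and no control replicate 2, 59 without both arrays numbered 2, and 686 when the replicate block was added to that. Over 17 alternatives and 309 fits of members, 275 kept their sign and side of the threshold, 2 passed it (Csf1 1460220_a_at, at 0.80 and 0.82) and 32 changed sign. The cause of the sign changes was not tested.

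Log2 fold changes that changed sign were, with an offset of 1, Ccl7 (-0.0105) and Cx3cl1 1421610_at (-0.0066), and with an offset of 64, Cxcl1 1457644_s_at (0.0074). Without both arrays numbered 2, with and without the replicate block, they were Ccl7 (-0.039), Cxcl1 1457644_s_at (0.022), Cxcl5 (0.019), Cxcl10 (-0.0072) and Cxcl12 1448823_at (0.013). With 1 probe set a gene and no control replicate 2, they were Cxcl1 1457644_s_at (0.0052) and Cxcl12 1448823_at (0.073). With arrays left out, the ranges that crossed 0 were -0.056 to 0.062 for Ccl7, -0.20 to 0.027 for Ccl5, -0.30 to 0.24 for Cxcl1 1457644_s_at, -0.15 to 0.046 for Cxcl5, -0.0072 to 0.055 for Cxcl10, -0.13 to 0.079 for Cxcl12 1448823_at, -0.0066 to 0.18 for Cxcl12 1417574_at, -0.0015 to 0.11 for Cx3cl1 1415804_at and -0.084 to 0.10 for Cx3cl1 1421610_at.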
